A study of Mus musculus with 6 samples.

Results

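The 42 genes described here encode the enzymes that copy DNA in S phase and the enzymes that supply the deoxynucleotides for it. They are listed by function, with no measured value in the rule, although the list was drawn up with earlier results of these data known. All 42 were found by symbol among the 46983 genes of the RNA-seq table. They fall into 8 roles, namely the MCM helicase (6 genes), origin licensing (5), helicase activation (6), the sliding clamp and its loader (6), polymerases and primase (9), single-strand binding (3), flap processing and ligation (2) and nucleotide supply (5). Expression was measured by bulk RNA-seq in splenic B cells from WT mice (n = 3 libraries) and from mice whose B cells lack Hif1a (KO, n = 3 libraries). Hif1a encodes the oxygen-regulated subunit of the transcription factor HIF-1. All 6 cultures were driven towards IgA for 3 days with TGF-β, BAFF and IL-5 (10 ng/ml of each) and 5 μg/ml of LPS. In the study's methods the KO mice were C57BL/6 animals with Hif1a f/f and Mb1-cre, a cre that is active from early B-lineage cells onwards, and the WT mice were littermates with either Hif1a f/+ and cre or Hif1a f/f without cre. The labels do not say which of these controls gave which WT library, nor whether each library came from a separate mouse, so the p-values measure only the spread between these libraries. The comparison asks whether loss of Hif1a changes the expression of the replication machinery in these dividing B cells.

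Activated B cells divide rapidly, and class switching takes place in dividing cells. In G1 phase the origin recognition complex, Cdc6 and Cdt1 load the ring of MCM2 to MCM7 onto DNA, and in S phase Cdc45 and the GINS complex turn this ring into the active helicase. Polymerase α and primase start each strand, polymerases δ and ε extend it while held by the PCNA clamp, and ribonucleotide reductase, thymidylate synthase, thymidine kinase and dUTPase keep the deoxynucleotide pools filled. Many of these genes are transcribed together before S phase by E2F factors.

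The genes were therefore examined for shared promoter letters. RefSeq promoter windows of 300 bases (250 before to 50 after the transcription start, GRCm38.p6) were given for 35 of the 42 genes, all but Gins1, Gins2, Gins4, Mcm4, Pole, Prim2 and Rfc2. The E2F letters TTGGCGC or TTCGCGC or TTCCCGC or TTGCCGC, counted on both strands with overlaps, were present in 20 of the 35 windows (57.1%), against 17.8% of the 9124 windows of tested genes and 9.7% of all 27025 windows. The letters CCAAT were present in 22 windows (62.9%, against 39.4% of tested genes), and the HIF letters ACGTG in 9 (25.7%, against 26.4% of tested genes). The 150 bases before the start are shown for 6 genes on which the results turn, 5′ to 3′ along the gene's strand with E2F letters on either strand in capitals. Mcm5 and Mcm6 encode partners of the same ring, Pola1, Mcm10 and Tyms are among the genes with the largest differences between WT and KO, and Rrm1 encodes the large subunit of ribonucleotide reductase.
Mcm5 (chr8:75109359-75109508, plus strand): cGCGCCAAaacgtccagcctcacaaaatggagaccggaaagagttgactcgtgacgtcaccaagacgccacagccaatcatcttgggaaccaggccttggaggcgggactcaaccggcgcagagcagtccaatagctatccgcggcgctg
Mcm6 (chr1:128359706-128359855, minus strand): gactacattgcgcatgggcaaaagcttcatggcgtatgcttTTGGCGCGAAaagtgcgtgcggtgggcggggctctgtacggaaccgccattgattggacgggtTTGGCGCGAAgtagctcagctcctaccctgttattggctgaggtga
Pola1 (chrX:93632156-93632305, minus strand): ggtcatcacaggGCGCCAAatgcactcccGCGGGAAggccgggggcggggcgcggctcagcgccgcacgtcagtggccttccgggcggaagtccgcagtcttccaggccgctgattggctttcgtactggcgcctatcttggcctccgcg
Rrm1 (chr7:102441545-102441694, plus strand): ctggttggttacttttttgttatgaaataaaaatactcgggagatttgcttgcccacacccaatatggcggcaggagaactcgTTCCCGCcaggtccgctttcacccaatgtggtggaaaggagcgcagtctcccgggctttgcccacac
Mcm10 (chr2:5012792-5012941, minus strand): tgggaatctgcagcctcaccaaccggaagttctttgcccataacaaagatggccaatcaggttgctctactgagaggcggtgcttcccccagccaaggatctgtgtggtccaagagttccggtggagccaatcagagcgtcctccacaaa
Tyms (chr5:30073626-30073775, minus strand): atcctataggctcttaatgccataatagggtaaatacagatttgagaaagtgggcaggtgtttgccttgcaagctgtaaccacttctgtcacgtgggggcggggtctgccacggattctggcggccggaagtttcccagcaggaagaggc
Mcm6 held 4 of its 5 matches in the bases shown, while Tyms and Mcm10 held none in their whole windows. The presence of E2F letters did not separate the genes by their difference between WT and KO. The median log2 fold change was -0.13 for the 20 genes with E2F letters (range -0.24 to 0.084) and -0.13 for the 15 without (range -0.48 to 0.026).

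The libraries held 25.0 to 37.2 M reads, recovered from the deposited FPKM values (fragments per kilobase of gene, scaled to the mapped reads of the library). Hif1a itself stood at 36.5, 49.8 and 45.8 FPKM in the WT libraries and at 46.5, 45.6 and 52.8 FPKM in the KO libraries. Reads over the whole gene do not measure removal of the floxed part, so this gene does not check the labels. In a principal component analysis of all genes tested, the first component (54.7% of the variance) placed WT replicate 1 at 15.7, with the KO libraries (7.1 to 19.5) and away from WT replicates 2 and 3 (-26.2 and -25.9). Results are therefore given with and without WT replicate 1. B-cell markers were abundant in every library (8 of 8 genes above 0, summed FPKM 3060 to 3935 in WT and 3069 to 4102 in KO). Of the other markers, the plasma cell sum (6 of 6 genes) ranged from 398.8 to 715.4 in WT and from 505.2 to 905.9 in KO. The macrophage sum (10 of 10 genes) was mostly Apoe and ranged from 1211 to 2027 in WT and from 1492 to 2904 in KO. The neutrophil sum (8 of 8) was 41.9 in WT replicate 1 and at most 0.528 elsewhere. The dendritic cell sum (6 of 6) was 16.2 to 17.9 in WT and 12 to 13 in KO. The T-cell sum (8 of 8) was nearly all Lck and ranged from 91.4 to 133.1 in WT and from 134.8 to 138.4 in KO. Natural killer cell markers (4 of 6 above 0, Gzma and Gzmb at 0) summed to at most 0.575, and erythroid markers (7 of 7) to 3.05 to 16.3 in WT and 2.91 to 4.72 in KO.

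None of the 42 replication and nucleotide supply genes was differentially expressed between KO and WT (limma, adjusted p under 0.05; smallest adjusted p of these genes 0.626). Of all 13312 genes tested, 0 were called as well (0%), also with voom on recovered reads, and 929 (6.98%) passed an unadjusted p under 0.05 (4.5% lower in KO), as did 1 of the 42, Tyms. By point estimate 36 of the 42 genes were lower in KO and 6 higher, with a median log2 fold change of -0.13 (range -0.48 to 0.084). Over all genes tested 57.9% were lower, with a median of -0.028. The WT and KO values did not overlap for 2 of the 42 genes, both lower in KO, against a background of 10.1% of all genes (6.03% lower in KO). The 95% interval of the fold change included 0 for 41 genes. It reached below -0.5 for 5 and to -0.50 for Rrm2, so a difference of that size was not excluded for these genes. Fold changes on log2(FPKM + 1) understate those of low genes, so the interval of Fen1 (mean 0.679 FPKM) is too narrow for this reading. The mean level was above 10 FPKM for 40 of the 42 genes. In bulk RNA, fewer cells in S phase and less of each transcript per cell cannot be told apart.

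**Figure D1:**
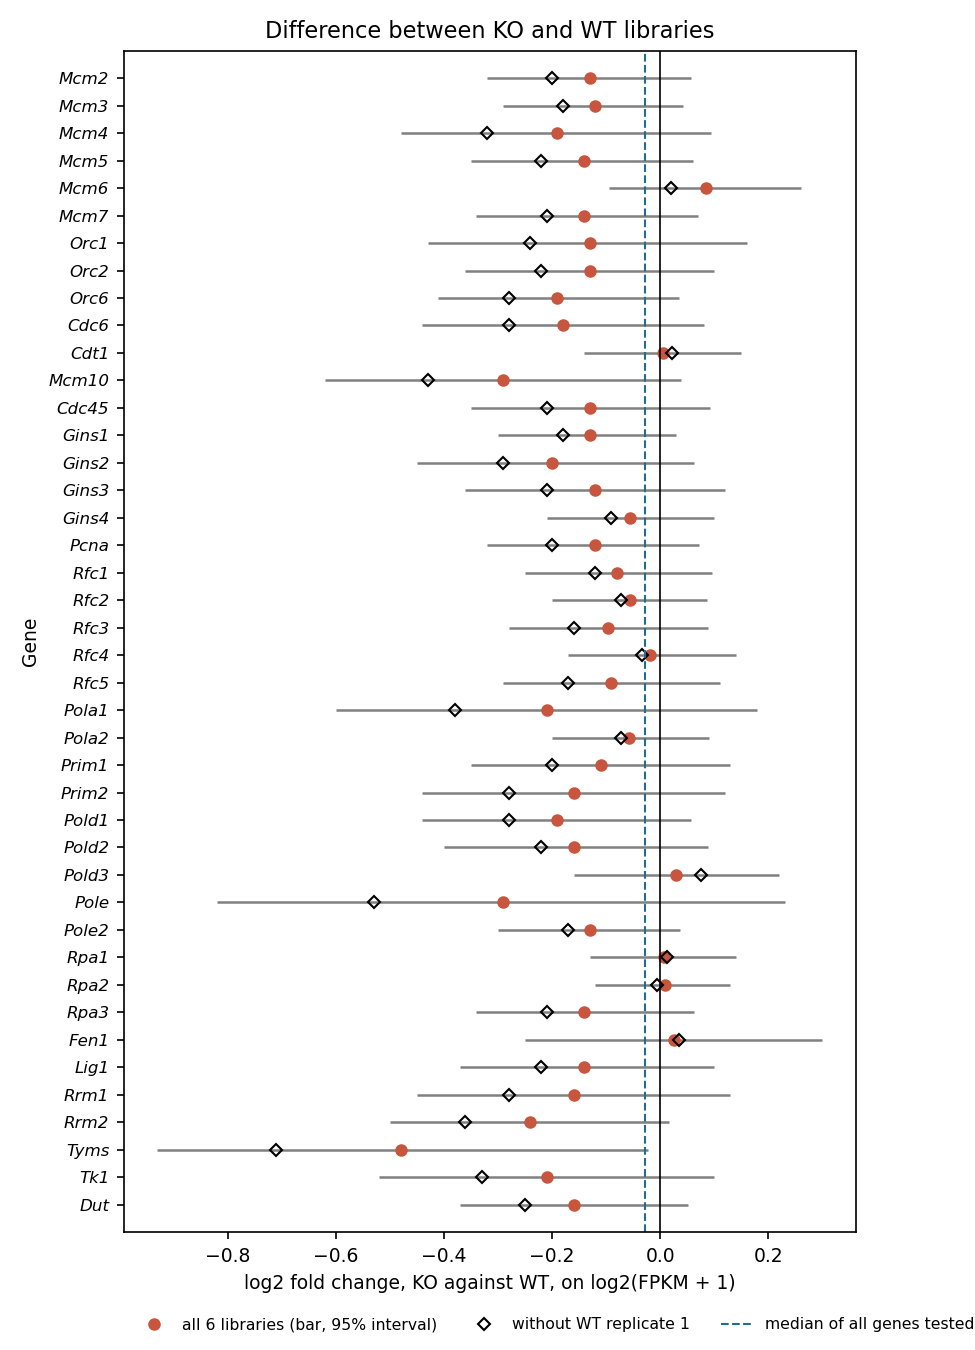
Log2 fold change of KO against WT on log2(FPKM + 1) (horizontal axis) for each of the 42 genes (vertical axis), with its 95% interval from all 6 libraries as a bar and the value without WT replicate 1 as an open diamond; the dashed line is the median of all genes tested (-0.028). Most points lie left of 0, only the interval of Tyms ends below 0, and Mcm6 has the highest value (0.084).

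The spread lay mainly among the WT libraries. WT replicates 2 and 3 held the highest values of all 6 libraries in 33 of the 42 genes (78.6%, against 30.5% of all genes tested), and WT replicate 1 lay within the KO range in 36 (64.2% of all genes). The median deviation of the 42 genes from their 6-library mean, on the log2 scale, was 0.14 in WT replicates 2 and 3, -0.091 in WT replicate 1, 0.0046 in KO replicate 1, -0.069 in KO replicate 2 and -0.10 in KO replicate 3. Other measures moved with these libraries. WT replicates 2 and 3 also had the highest erythroid sums (16.3 and 13.5, against 2.91 to 4.72 in the other 4 libraries), the highest Lyz2 (58.3 and 26.2 FPKM, against 0.60 to 6.18) and the lowest plasma cell sums (429.4 and 398.8, against 505.2 to 905.9). Of the 6 plasma cell markers, Prdm1, Xbp1 (the most abundant) and Jchain were lowest in WT replicates 2 and 3. Sdc1, Irf4 and Tnfrsf17 were not lowest in both. Lyz2 is among the 10 macrophage markers, whose sum, mostly Apoe, was instead lowest in these libraries (1260.4 and 1211.0, against 1492.0 to 2903.6). The part of these measures in the replication result was not tested.

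**Figure D2:**
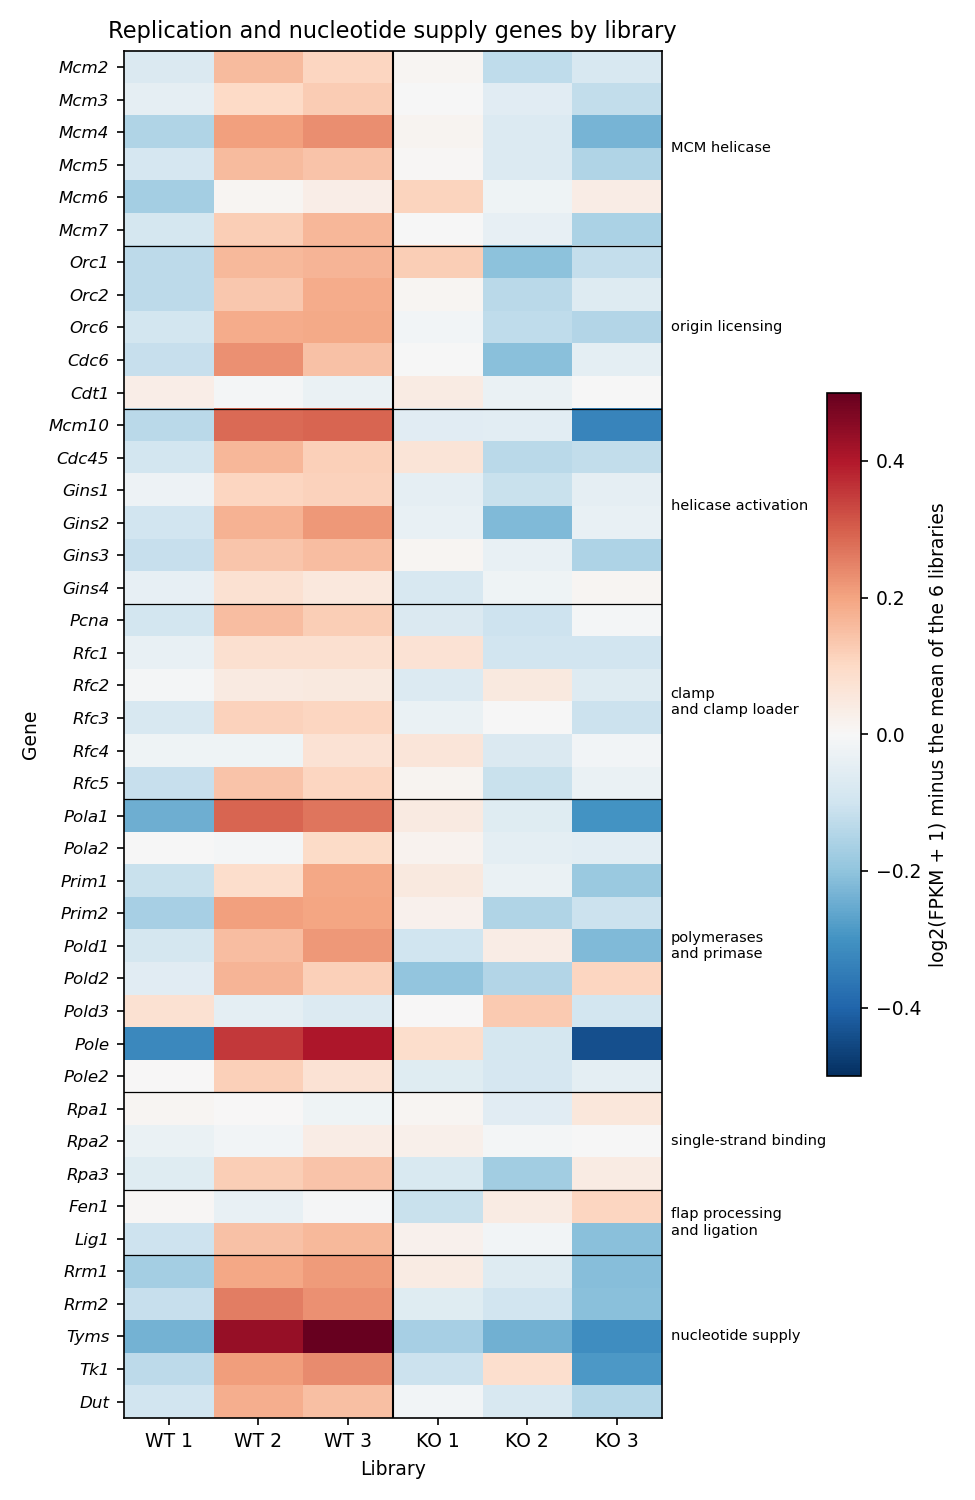
Log2(FPKM + 1) of each gene (rows, in 8 roles) in each library (columns) minus its mean over the 6 libraries, red above and blue below, with the colours ending at 0.5 either way. WT replicates 2 and 3 are red in most rows, and WT replicate 1 resembles the KO libraries, lying within their range in 36 of the 42 genes.

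Without WT replicate 1, 4 of the 42 genes were lower in KO at an adjusted p under 0.05 (limma), against 9.4% of all genes tested (5.75% lower in KO). These were Tyms (log2 fold change -0.71, adjusted p = 0.00559), Rrm2 (-0.36, adjusted p = 0.0269), Mcm10 (-0.43, adjusted p = 0.0488) and Orc6 (-0.28, adjusted p = 0.0498). The same 4 were called when each library was given its own weight, under which WT replicate 1 weighed least (0.238, against 0.664 to 2.42 for the others) and 10.9% of all genes passed (6.82% lower in KO). At an unadjusted p under 0.05, 28 of the 42 passed without WT replicate 1, against 29.9% of all genes. The number lower in KO was then 37 and the median log2 fold change was -0.21, against -0.05 over all genes. These calls rest on 2 WT libraries and on leaving out or downweighting a library that carries a WT label. The median log2 fold change of the 42 genes was -0.098 without WT replicate 2 and -0.091 without WT replicate 3. It was -0.17, -0.12 and -0.10 without KO replicates 1, 2 and 3.

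Nucleotide supply had the lowest median of the 8 roles, at -0.21, and all 5 genes were lower in KO by point estimate. Tyms encodes thymidylate synthase, which makes dTMP from dUMP (GRCm38 chr5:30058202-30073617, minus strand). Tyms measured 35.4, 57.0 and 60.2 FPKM in WT and 37.2, 35.3 and 33.5 FPKM in KO. WT replicates 2 and 3 stood above all other libraries, while WT replicate 1 lay inside the KO range. The log2 fold change was -0.48 ± 0.19 (SE; 95% interval -0.93 to -0.023; limma, unadjusted p = 0.0419, adjusted p = 0.626). Rrm2, the small subunit of ribonucleotide reductase whose abundance follows S phase, measured 253.8, 328.2 and 322.1 FPKM in WT and 263.4, 257.2 and 237.8 FPKM in KO (log2 fold change -0.24 ± 0.11, SE; limma, adjusted p = 0.626). Here too WT replicate 1 lay within the KO values. Tk1, the thymidine kinase of the salvage route, measured 69.2, 88.0 and 89.5 FPKM in WT and 70.3, 80.5 and 62.0 FPKM in KO (-0.21 ± 0.13, SE). KO replicates 1 and 2 stood between the WT values, so the groups overlapped. Rrm1 and Dut, the dUTPase that keeps uracil out of DNA, each had a log2 fold change of -0.16.

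**Figure D3:**
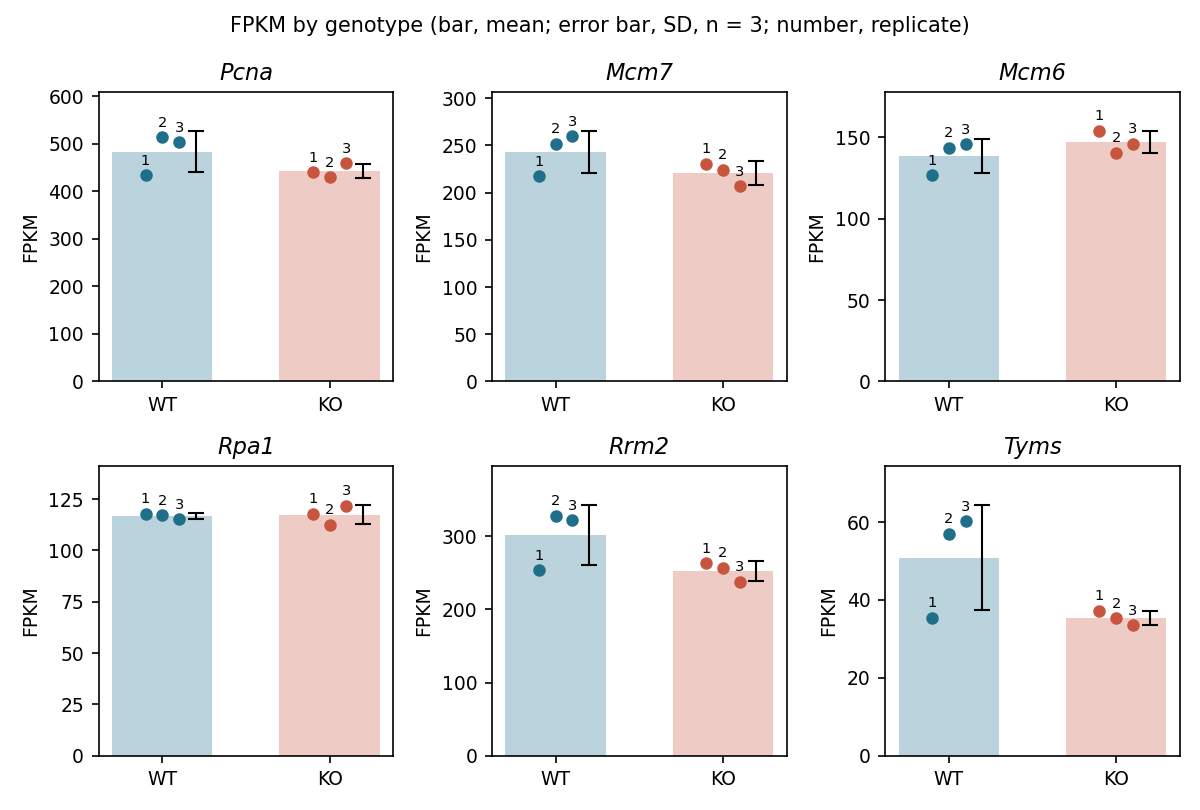
FPKM (vertical axis, from 0) of 6 genes in WT and KO, with points for single libraries numbered by replicate, bars for the mean and error bars for the SD (n = 3). In Tyms and Rrm2 WT replicate 1 lies with the KO libraries (35.4 and 253.8 FPKM), while Rpa1 has nearly the same mean in both groups.

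The 6 MCM genes had a median log2 fold change of -0.13, and 5 of them were lower in KO. Mcm7 had the highest FPKM of the ring, at 217.3, 251.9 and 259.7 in WT and 230.9, 224.3 and 206.8 in KO, and the groups overlapped. Mcm4 differed most, with 61.1, 78.5 and 80.1 FPKM in WT and 68.6, 64.7 and 57.7 FPKM in KO (log2 fold change -0.19 ± 0.12, SE; limma, adjusted p = 0.646). Mcm2, Mcm3, Mcm5 and Mcm7 lay between -0.14 and -0.12. Mcm6 (GRCm38 chr1:128331590-128359664, minus strand) was the exception, at 126.6, 143.5 and 145.6 FPKM in WT and 153.9, 140.5 and 146.0 FPKM in KO (log2 fold change 0.084 ± 0.075, SE; 95% interval -0.095 to 0.26). The order of levels between these genes depended on the gene length used. In FPKM, Mcm7 (231.8) stood above Mcm3 (184.5), Mcm2 (149.3) and Mcm6 (142.7), whereas per kilobase of the longest coding transcript Mcm3 (105.7) led, followed by Mcm5 (95.6), Mcm7 (83.6), Mcm4 (68.5), Mcm6 (68.2) and Mcm2 (59.0). The gene length behind the deposited FPKM lay within 1 base of the mean length of the annotated transcripts for 30 of the 42 genes.

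A ratio within a library is unaffected by differences in depth or in the level of the whole ring. Each MCM gene was therefore set against the geometric mean of the other 5 in the same library, a measure chosen after the values were seen. The Mcm6 ratio was 1.02, 0.977 and 0.987 in WT and 1.16, 1.12 and 1.23 in KO. All 3 KO libraries stood above all 3 WT libraries, and WT replicate 1 stood with the other WT libraries. The difference of 0.23 on the log2 scale (0.25 without WT replicate 1, and 0.20 to 0.26 when each library was left out) gave an exact two-sided permutation p of 0.1, the smallest that 3 against 3 allows. As the measure was chosen after the values were seen, this p cannot serve as a test. The Mcm5 ratio was lower in every KO library, by only 0.044 on average, and the other 4 ratios overlapped between WT and KO. In all of these ratios Mcm6 is among the other 5 genes. A higher Mcm6 therefore lowers them by construction, so they are not independent of the Mcm6 ratio. When all libraries were centred on the 42 genes, 5 of the 42 did not overlap between WT and KO, against 8.89% of all genes tested. Only Mcm6 was higher (log2 fold change 0.20; limma, adjusted p = 0.602), against 5.87% of all genes higher in KO. Orc6, Rrm2, Tyms and Dut were lower. The centring was taken from the 42 genes themselves, MCM genes included, so this count is not independent of the MCM ratios. No gene was called by limma in that fit.

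**Figure D4:**
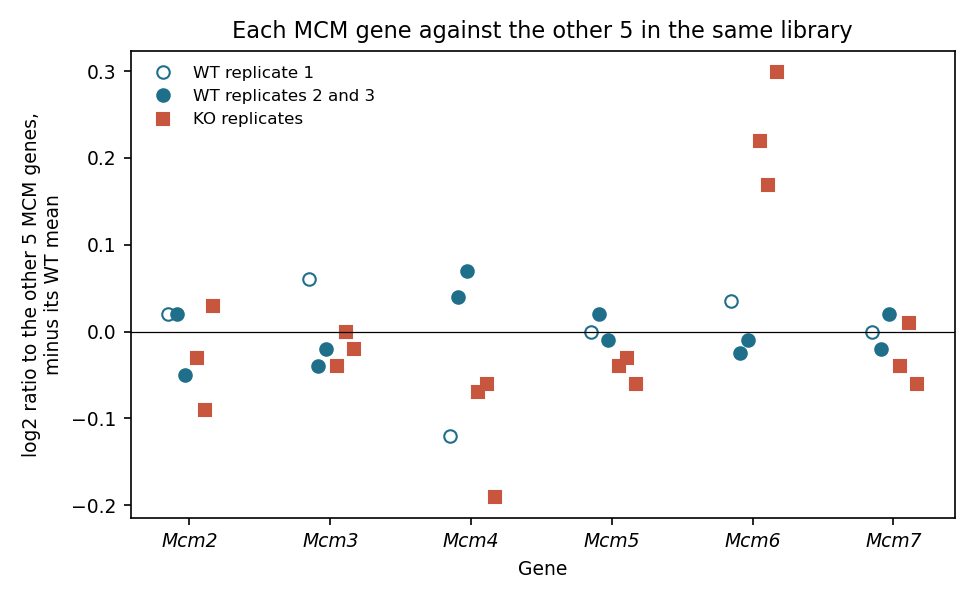
Log2 ratio of each MCM gene to the other 5 in the same library, minus its WT mean (vertical axis), for WT replicate 1 (open circles), WT replicates 2 and 3 (filled circles) and KO (squares). The Mcm6 squares lie above all Mcm6 circles, with a mean difference of 0.23.

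Among the origin licensing genes, 4 of 5 were lower in KO, with a median of -0.13. Orc6, a subunit of the origin recognition complex, measured 31.7, 38.6 and 38.7 FPKM in WT and 33.5, 30.9 and 30.5 FPKM in KO (log2 fold change -0.19 ± 0.094, SE; limma, adjusted p = 0.626). Orc2, the most abundant of the group in FPKM, measured 34.6, 41.8 and 43.3 in WT and 38.2, 34.5 and 36.3 in KO. In both genes only WT replicate 1 lay within the KO values. Cdc6, which loads MCM together with Cdt1, and Orc1 had log2 fold changes of -0.18 and -0.13. Cdt1 differed little, with 17.8 to 18.7 FPKM in WT and 17.8 to 18.8 FPKM in KO.

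All 6 helicase activation genes were lower in KO by point estimate, with a median of -0.13. Mcm10, which helps to switch on the loaded helicase, measured 31.9, 43.0 and 43.2 FPKM in WT and 33.8, 33.9 and 27.8 FPKM in KO (log2 fold change -0.29 ± 0.14, SE; limma, adjusted p = 0.626). WT replicates 2 and 3 stood clear of the other 4 libraries. Of the GINS subunits, Gins1 did not overlap, at 21.7, 23.9 and 24.0 FPKM in WT against 21.4, 20.4 and 21.4 FPKM in KO, although the lowest WT library was only just above the highest KO library (-0.13 ± 0.068, SE; adjusted p = 0.626). Gins2 measured 13.5, 16.5 and 17.0 FPKM in WT and 14.1, 12.3 and 14.1 FPKM in KO (-0.20 ± 0.11, SE), and 67.3% of its exonic bases overlap Gse1 on the opposite strand. The part of this overlap in its values was not tested. Gins3 and Gins4 had log2 fold changes of -0.12 and -0.055. Cdc45 measured 40.7, 48.8 and 47.2 FPKM in WT and 45.4, 39.4 and 39.8 FPKM in KO, with KO replicate 1 above WT replicate 1.

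The 9 polymerase and primase genes had a median of -0.16, and 8 were lower in KO. Pole, the catalytic subunit of polymerase ε, spread most, with 28.0, 45.3 and 47.0 FPKM in WT and 37.5, 33.1 and 25.7 FPKM in KO (log2 fold change -0.29 ± 0.22, SE; limma, adjusted p = 0.674). Pola1, the catalytic subunit of polymerase α, measured 26.3, 38.6 and 38.0 FPKM in WT and 32.4, 30.0 and 25.3 FPKM in KO (-0.21 ± 0.16, SE). In both genes WT replicate 1 and KO replicate 3 were the lowest libraries. Pold1, the catalytic subunit of polymerase δ and the most abundant of the group in FPKM, measured 78.8, 93.5 and 97.7 FPKM in WT and 78.1, 86.0 and 71.9 FPKM in KO (-0.19 ± 0.10, SE). Pole2, the second subunit of polymerase ε, was the other gene without overlap, at 10.6, 11.6 and 11.2 FPKM in WT against 10.1, 9.94 and 10.2 FPKM in KO (-0.13 ± 0.071, SE; limma, adjusted p = 0.626). Its KO libraries lay close together, just below WT replicate 1. The other log2 fold changes were -0.16 for Prim2 and Pold2, -0.11 for Prim1, -0.057 for Pola2 and 0.029 for Pold3.

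The 6 genes of the clamp and its loader had a median of -0.084, and all were lower in KO by point estimate. Pcna, the sliding clamp and the most abundant of the 42 genes in FPKM, measured 434.1, 514.7 and 503.3 in WT and 440.2, 430.3 and 459.6 in KO (log2 fold change -0.12 ± 0.082, SE; limma, adjusted p = 0.653). The 5 subunits of the loader, Rfc1 to Rfc5, ranged from -0.096 to -0.018. The single-strand binding complex RPA did not move as a unit in point estimate. Rpa1 measured 117.9, 117.2 and 115.3 FPKM in WT and 117.9, 112.5 and 121.8 FPKM in KO, a log2 fold change of 0.0065 with a 95% interval of -0.13 to 0.14. Rpa2 was equally flat (0.0088; interval -0.12 to 0.13), while Rpa3 had a log2 fold change of -0.14 (interval -0.34 to 0.062). Lig1, which seals Okazaki fragments, measured 74.9, 89.2 and 90.4 FPKM in WT and 81.7, 79.8 and 69.5 FPKM in KO (-0.14 ± 0.099, SE). Fen1, the flap nuclease that trims these fragments, was listed at only 0.55 to 0.81 FPKM. Its exonic bases overlap Gm10143 and Tmem258 on the opposite strand over 84.2% of their length, and the part of this overlap in its low value was not tested.

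The other genes of the pathway had a similar pattern. Of 73 listed genes for licensing control, the fork and its checkpoint, further polymerase subunits, chromatin assembly and nucleotide supply, 72 were tested (Nme2 was too low), 58 were lower in KO and the median log2 fold change was -0.12 (-0.19 without WT replicate 1). None was called (limma, against 0% of all genes), 4 passed an unadjusted p under 0.05 (6.98% of all genes) and 8 did not overlap (10.1% of all genes). Recql4, a helicase that acts in origin firing, had a log2 fold change of -0.39 and Rnaseh2b, a subunit of the nuclease that removes ribonucleotides from DNA, of -0.21. Gart, an enzyme of purine synthesis, measured 41.4, 57.3 and 58.7 FPKM in WT and 41.9, 42.4 and 39.2 FPKM in KO (-0.33; limma, adjusted p = 0.626). Samhd1, which breaks down deoxynucleotides, was higher in KO, at 151.7, 111.7 and 100.6 FPKM in WT and 150.2, 158.0 and 159.4 FPKM in KO (0.38; limma, adjusted p = 0.626). WT replicate 1 again lay with the KO libraries in both. Without WT replicate 1, 13 of the 72 were called, 10 lower and 3 higher in KO, against 9.4% of all genes. Of 19 E2F, RB and S-phase cyclin genes, 14 were lower in KO (57.9% of all genes). None was called (limma, against 0% of all genes) or passed an unadjusted p under 0.05 (6.98% of all genes). Without WT replicate 1, 3 of the 19 were called, all lower in KO, against 9.4% of all genes. E2f1, the only gene of the 19 without overlap (10.1% of all genes), measured 14.1, 15.7 and 15.5 FPKM in WT and 13.9, 14.1 and 13.6 FPKM in KO. The lowest WT and highest KO values are equal at the digits shown (log2 fold change -0.11; limma, adjusted p = 0.645). The largest log2 fold changes in size were those of Mybl2 (-0.32), E2f7 (-0.31), Ccne2 (-0.21) and E2f2 (0.17). The median of the 19 was -0.10, and it moved to -0.16 without WT replicate 1, to -0.059 without WT replicate 2 or WT replicate 3 and to -0.042 without KO replicate 3.

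Genes of mitosis and the spindle, which act after S phase, were the nearest other group of the cell cycle. Of these 40 genes 35 were lower in KO, with a median of -0.087, against 57.9% and a median of -0.028 over all genes tested. None of the 40 was called (limma, against 0% of all genes). Their spread between libraries differed in shape from that of the replication genes. KO replicate 3 was the lowest library in 33 of 40 mitosis genes (82.5%) and in 21 of the 42 replication genes (50%). The median deviation of the mitosis genes was -0.24 in KO replicate 3, while KO replicates 1 and 2 stood at 0.081 and 0.022. Without KO replicate 3 only 15 of the 40 mitosis genes were lower in KO, and their median was 0.014, so their direction rested on that library. The median was -0.18 without WT replicate 1, -0.16 without KO replicate 1, and -0.039 without WT replicate 3. The difference between the lists was not tested.

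**Figure D5:**
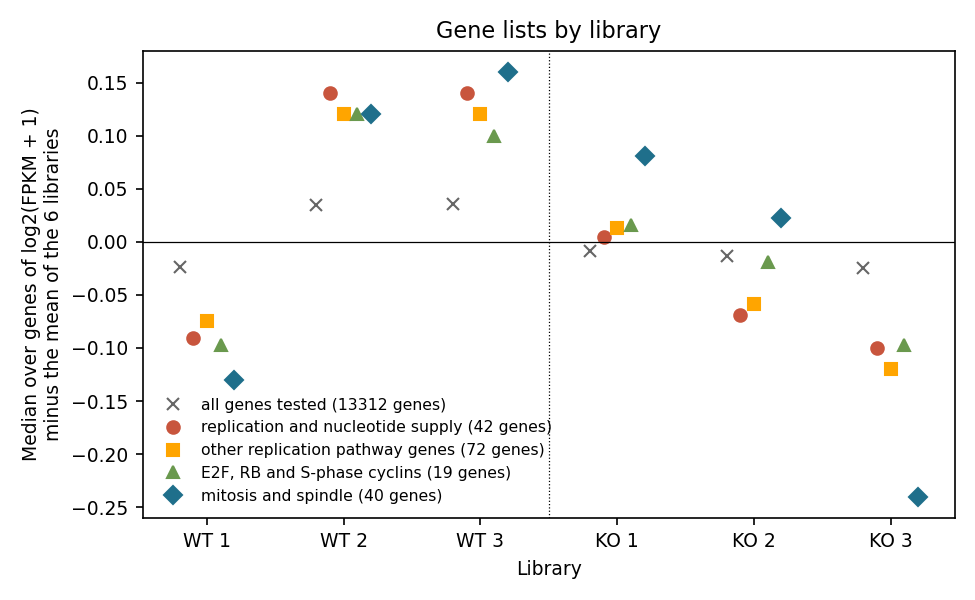
Median over the genes of each list of log2(FPKM + 1) minus the mean of the 6 libraries (vertical axis), by library. All lists are highest in WT replicates 2 and 3, and the mitosis list stands at -0.24 in KO replicate 3, against -0.10 for the replication and nucleotide supply genes.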

How the data were processed

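RNA was sequenced from 6 cultures (3 WT, 3 KO), grouped and numbered by their labels. The authors aligned the reads to mm10 with TopHat, counted reads per gene with HTSeq, tested counts with DESeq and deposited FPKM values, 1 column per library; the annotation release and strand option are not given in the sources used here. GENCODE vM21 on GRCm38 gave names and positions for 46488 of the 46983 gene IDs. limma 3.58.1 under R 4.3.3 (lmFit, then eBayes with trend, two-sided) compared KO with WT on log2(FPKM + 1), pseudocount 1, without covariates, over the 13312 genes averaging at least 0.5 FPKM, and called at a Benjamini-Hochberg adjusted p under 0.05. Fold changes on this scale understate those of low genes. The depth of each library (25.0 to 37.2 M reads) and reads per gene were recovered from the steps between FPKM values, on the assumption that each gene has 1 whole-number length. The script was tested on simulated data with 200 of 13312 genes changed. At a log2 change of 0.5 it called 34.5% of the changed genes, and 10.4% of its calls were false. At a log2 change of 1.0 these shares were 83.0% and 4.6%.

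Replication genes, the comparison lists and the markers were chosen with earlier results of these data known. Values in all libraries are given for genes whose groups do not overlap, the 10 largest log2 fold changes and the most abundant gene of each role; of the pathway and regulator lists, genes at an unadjusted p under 0.05 or otherwise the 4 largest log2 fold changes were named. Mcm6, Fen1, E2f1 and the ratios between genes were singled out after their values were seen. Alternatives changed the pseudocount, filter, scaling, variance model, library weights and block, used voom on recovered reads, or left out each library. Python 3.11.15 and matplotlib 3.10.9 were used for tables and figures.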

Additional observations from a re-analysis of the deposited data

How the results depend on the processing

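The 0 calls among all genes and among the 42 replication genes held under a pseudocount of 0.1, no filter, a mean FPKM of at least 5 (which leaves out Fen1), median-ratio scaling, quantile normalization, no variance trend and voom on recovered reads. With library weights, 1449 of all genes, 4 of the 42, 14 other pathway genes, 3 E2F, RB and cyclin genes and 1 mitosis gene were called. Leaving out each library gave 0 to 1251 calls over all genes, 0 to 4 among the 42, 0 to 13 among the other pathway genes and 0 to 3 among the regulators, the highest each time without WT replicate 1. The mitosis genes lower in KO ranged from 15 to 38, the lowest without KO replicate 3. With the replicate number as a replicate block 0 genes were called, 36 of the 42 were lower and their median stayed at -0.13. Deviations of same-numbered libraries had correlations of -0.0987, 0.139 and -0.276. These values cannot show whether the numbers pair the libraries, and the labels do not say. Centring on the 42 genes, chosen after seeing the data, brought their median to -0.013 by construction and turned Gins4 (0.065), Rfc1 (0.041), Rfc2 (0.065), Rfc3 (0.024), Rfc4 (0.10), Rfc5 (0.031), Pola2 (0.063) and Prim1 (0.0062) above 0; median-ratio scaling turned Rfc4 (0.016). Log2 fold changes near 0 changed sign with single libraries left out, over -0.017 to 0.022 for Cdt1, -0.053 to 0.014 for Rfc4, -0.030 to 0.081 for Pold3, -0.020 to 0.037 for Rpa1, -0.0055 to 0.028 for Rpa2 and -0.022 to 0.088 for Fen1. The causes of these changes were not tested. Fen1 rests on the fewest reads of the 42 genes.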

Other observations

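Subunits of the same complex or steps of the same route were also set against each other within each library, 14 ratios in all with the 6 of the MCM genes, each chosen after the values were seen. The ratio of Rrm2 to Rrm1, the small and large subunits of ribonucleotide reductase, was 3.35, 3.36 and 3.25 in WT and 3.00, 3.16 and 3.24 in KO. Every KO library stood below every WT library, by little in KO replicate 3, and the exact permutation p of 0.1 was the smallest that 3 against 3 allows. Given the choice after the values were seen, this p cannot serve as a test either. The ratio of Tyms to Rrm2 was 0.14, 0.174 and 0.187 in WT and 0.141, 0.137 and 0.141 in KO, with WT replicate 1 inside the KO range. The ratio of Pold3 to Pold1, subunits of polymerase δ, was 1.01, 0.779 and 0.735 in WT and 0.967, 0.962 and 0.985 in KO, again with WT replicate 1 apart from the other WT libraries. The ratios of Rpa3 to Rpa1, Tyms to Tk1, Cdt1 to Cdc6, Pola1 to Pola2 and Pole to Pole2 overlapped between WT and KO as well.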
